A study of Canis lupus with 23 samples.

Results

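Canine lymphoma, a tumor of lymphocytes, was compared with transitional cell carcinoma (TCC), a tumor of the epithelium that lines the bladder. All 7 tumors labelled lymphoma and all 3 labelled TCC were taken, which makes 10 of the 23 tumors in the series. The study reports more TCCs than the series holds, so not every TCC that it matched to drugs is included here. The comparison was run over all 15115 genes that could be named, and a gene was called where the limma adjusted p was under 0.05 and the log2 fold change, always given as lymphoma minus TCC, was at least 1 in size.

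Lymphocytes carry antigen receptors that signal through the CD3 chains in T cells and the CD79 chains in B cells, and they home to lymph nodes along chemokines such as CCL19, CCL21 and CXCL13. Urothelium is a layered barrier: its surface cells make uroplakin plaques, and its cells are joined by tight junctions, adherens junctions and desmosomes and anchored to a basement membrane by integrins and laminins. Drugs in use for dogs act on both sides of this contrast, among them inhibitors of cyclooxygenase in TCC.

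Each tumor came from a different pet dog (Canis lupus in the labels), was sampled by biopsy, kept in RNAlater and measured on 1 Affymetrix Canine Genome 2.0 array. Per the study's methods, dogs entered before any chemotherapy, with corticosteroids barred in lymphoma and nonsteroidal anti-inflammatory drugs barred in TCC, so both groups are untreated tumors with no normal tissue beside them. The methods also give a cohort of Scottish terriers with TCC and a cohort of golden retrievers with multicentric lymphoma, beside a cohort open to any breed and tumor, and collection of TCC through a cystoscope or under ultrasound. The labels used here hold the diagnosis alone, without breed, age, sex or organ for each dog, so tumor type, organ, breed and way of biopsy cannot be told apart. These are pieces of tissue: fewer cells of a type and less RNA per cell cannot be told apart either.

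Levels are given as log2(signal + 16), on which 1 unit is a 2-fold change, and a level near 4 is that of a signal near 0. The median signal of an array was 85.4 to 121 in lymphoma and 82.1 to 103 in TCC. The log2 ratio of 3-prime over 5-prime control probesets, which rises as RNA is cut or copied short, was 2.55 to 3.56 in lymphoma and 3.23 to 3.84 in TCC (exact permutation test, two-sided p = 0.0833, where 0.0167 is the smallest value 7 against 3 can give). Its part in the results was not tested beyond a fit with the ratio as a covariate.

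The labels were first set against markers. CD3D, CD3G, CD79A, MS4A1, CD2 and PTPRC were higher in every lymphoma than in every TCC, and UPK1A, UPK1B, UPK2, UPK3A, KRT7, KRT8, KRT18, CDH1, EPCAM and PPARG were higher in every TCC than in every lymphoma. KRT20, a keratin of urothelial surface cells, did not pass, with a log2 fold change of 0.32. The tumor labelled Lymphoma_1 stood apart from the other 6. CD3D and CD3G, which pass on the T cell receptor's signal, were at 8.81 and 9.61 there, against at least 11.80 and 12.62 in the other lymphomas, and the TCCs were lower still. Other chains of that receptor did not set it apart. CD3E was at 8.57 there and at 7.75 and 6.73 in Lymphoma_0 and Lymphoma_2, and CD247 was at 6.89 there and 6.68 in Lymphoma_2. Genes of myeloid cells and mast cells were high there: MPO, the myeloperoxidase of granulocytes and their precursors, stood at 12.46 in Lymphoma_1, at 4.32 to 7.33 in the other lymphomas and at 4.24 to 4.31 in TCC. KIT, the receptor of stem cell factor, was at 11.33 against 4.77 to 7.34 in the other lymphomas. S100A8 and S100A9, calcium-binding proteins of neutrophils and monocytes, were at 13.40 and 13.02, against at most 9.40 and 8.79 in the other lymphomas and 8.02 to 11.27 and 8.93 to 10.11 in TCC. PTPRC, the leukocyte antigen CD45, was at 12.67, within the 12.21 to 13.59 of the others. CD3D, CD3G and these myeloid and mast cell genes set Lymphoma_1 apart from the tumors that share its label, and the diagnosis could not be checked here. The study states that a pathologist reviewed every biopsy before it was profiled. Among its lymphomas, KIT was the gene behind the top drug-target match of 1, from a golden retriever. The labels do not say which tumor that is. Over 12 neutrophil and mast cell genes, none was called in either direction by limma; their mean level was 9.20 in Lymphoma_1, 5.63 to 6.58 in the other lymphomas and 6.29 to 6.62 in TCC. With Lymphoma_1 left out, 1929 genes were called (807 higher in lymphoma and 1122 higher in TCC), and 1795 of these were among the calls made with it. Of 164 called genes examined one by one, 1, RSAD2, lost its call without this tumor. GZMA and EOMES, called genes below that were not among the 164, lost theirs too.

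Of 15115 genes, 1964 were called, which is 13.0% of those tested. There were 828 genes higher in lymphoma (5.48%) and 1136 higher in TCC (7.52%). Counts of list members below are to be read beside these shares. Every lymphoma lay above every TCC for 1406 genes (9.3%), and every TCC above every lymphoma for 1294 (8.56%). The differences were larger on the TCC side. Among called genes, the median size was 1.68 for those higher in lymphoma and 2.13 for those higher in TCC, and 40 genes against 144 reached a log2 fold change of 4 in size. Over all genes the median log2 fold change was 0.12. Both counts fell whichever TCC was left out. Without TCC_0, TCC_1 and TCC_2, the count higher in lymphoma was 602, 549 and 582, and the count higher in TCC was 826, 905 and 828. The part of the smaller group in this, and in calls lost without a TCC below, was not tested.

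**Figure D1:**
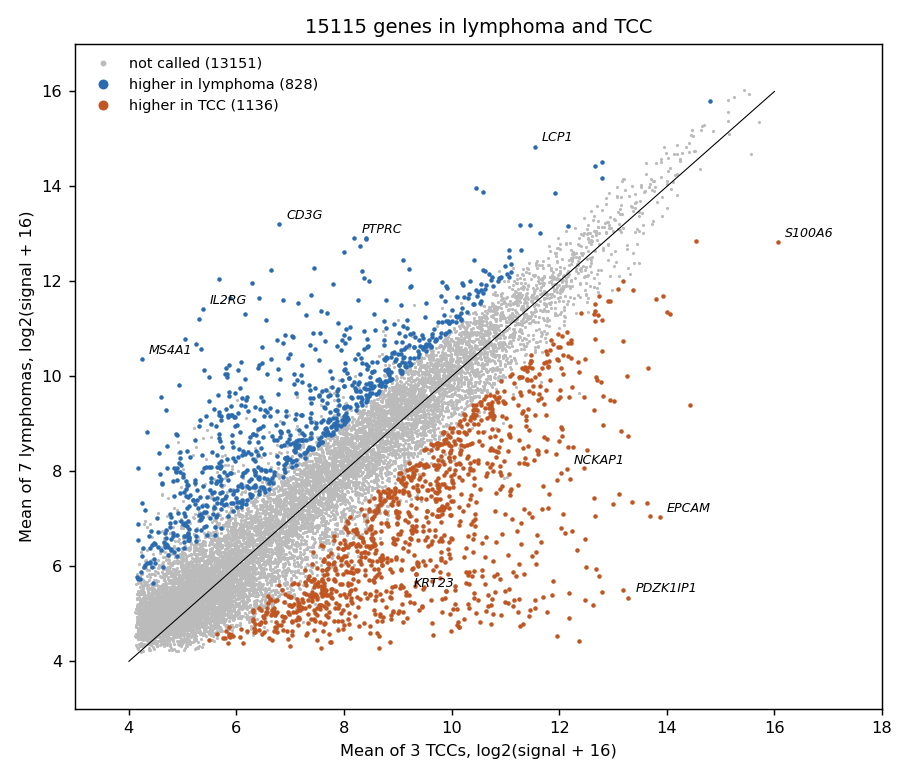
Mean log2(signal + 16) of the 7 lymphomas (vertical) against the mean of the 3 TCCs (horizontal) for 15115 genes, with 828 genes called higher in lymphoma above the line of equal level and 1136 called higher in TCC below it. Points far below the line, such as PDZK1IP1, outnumber points equally far above it, such as CD3G.

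The 10 largest differences toward lymphoma held 2 chains of the T cell receptor complex, the B cell antigen CD20, a cytokine receptor chain and the chemokines of lymph nodes. CD3G was at 9.61, 13.61 and 14.98 (lowest, median and highest lymphoma) and at 7.20, 7.20 and 5.96 in the 3 TCCs, a log2 fold change of 6.41, SE 0.89, limma adjusted p = 0.00029. CD3D was at 8.81, 12.10 and 13.40 in lymphoma and 5.56, 5.13 and 6.34 in TCC, a change of 6.37, SE 0.76, limma adjusted p = 8.73e-05. MS4A1, which encodes CD20, spread most: 6.80, 11.07 and 12.86 in lymphoma against 4.32, 4.15 and 4.24, a change of 6.12, SE 1.10, limma adjusted p = 0.00208. In no case did the groups overlap. IL2RG, the common gamma chain shared by the receptors of interleukins such as IL-2 and IL-7, was nearly level across the lymphomas, at 10.69, 11.55 and 11.78, and at 5.45, 4.54 and 6.13 in TCC, a change of 6.04, SE 0.33, limma adjusted p = 2.11e-07. CLEC2D, a C-type lectin of lymphocytes, was similarly tight, at 10.92, 11.58 and 12.30 against 5.67, 6.27 and 5.70, a change of 5.76, SE 0.28, limma adjusted p = 7.31e-08.

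CCL19, a ligand of CCR7 made by stromal cells of the T cell zone, was at 9.90, 11.15 and 12.10 in lymphoma and 5.65, 5.10 and 5.15 in TCC, with a change of 5.91, SE 0.42, limma adjusted p = 1.30e-06. CXCL13, the chemokine of B cell follicles, ran from 7.45 to 13.24 in lymphoma and reached at most 5.84 in TCC (change 5.74, SE 0.97, limma adjusted p = 0.0013). DNASE1L3, a secreted nuclease of dendritic cells and macrophages, was at 10.49, 12.12 and 12.86 and 6.30, 6.25 and 6.33. IKZF3, the lymphoid transcription factor Aiolos, and RHOH, a small GTPase of blood cells, had changes of 5.60 and 5.42. All 10 had their lowest lymphoma above their highest TCC, as the rule for naming them requires. Levels were also read in 9 melanomas and sarcomas of the series, 5 titled melanoma and 4 titled sarcoma or STS (soft tissue sarcoma). The histiocytic sarcoma and the hemangiosarcoma of the series are not among these 9. The levels lay in part between the groups: CD3G was at 6.90 to 11.20 there, while DNASE1L3 stayed at 6.87 to 8.49, under every lymphoma. CCL19, at 5.50 to 13.61, exceeded every lymphoma in at least 1 of the 9 tumors.

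**Figure D2:**
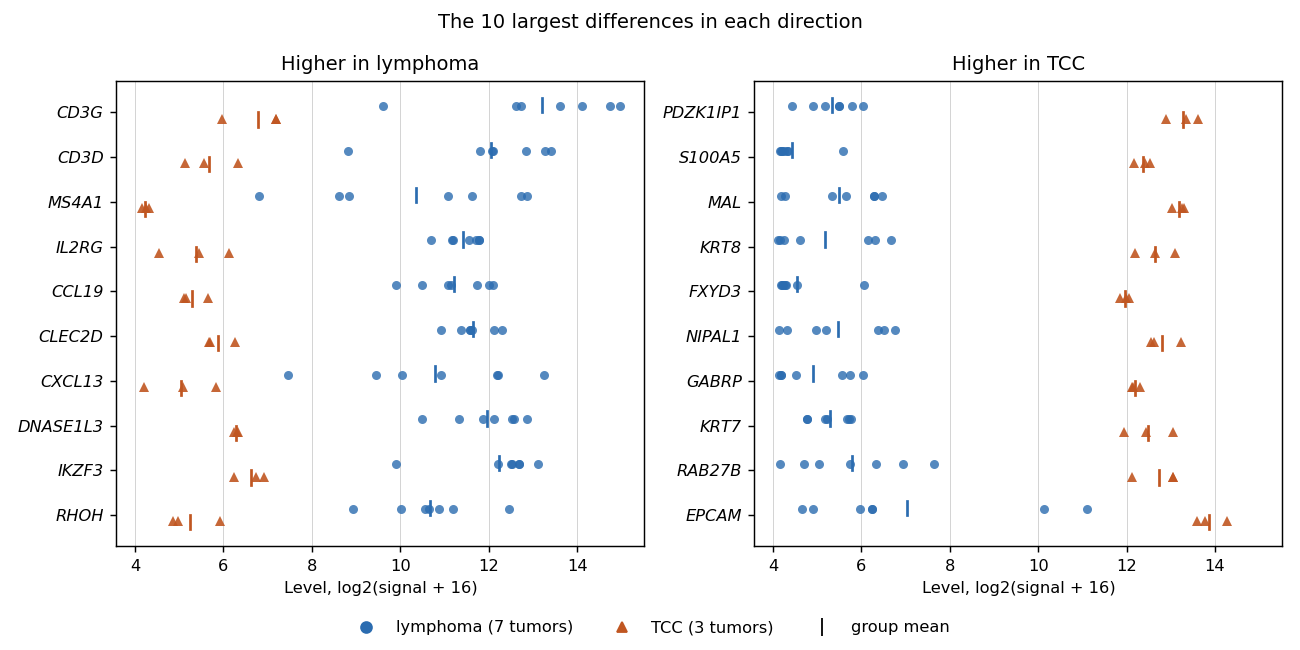
Level, log2(signal + 16), of the 10 genes of largest difference in each direction in each of the 7 lymphomas (circles) and 3 TCCs (triangles), with vertical ticks at group means. MS4A1 and CXCL13 spread most widely over the lymphomas, and EPCAM is over 10 in Lymphoma_4 and Lymphoma_6.

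Toward TCC, the 10 largest differences included 2 keratins, several membrane proteins, a calcium-binding protein and a GTPase. PDZK1IP1, a small membrane protein of epithelia, was at 4.45, 5.49 and 6.04 in lymphoma and 13.61, 13.34 and 12.90 in TCC, a change of -7.95, SE 0.36, limma adjusted p = 6.66e-08. S100A5, a calcium-binding protein, was near the floor in lymphoma (4.15, 4.26 and 5.59) and at 12.16, 12.41 and 12.53 in TCC, a change of -7.94, SE 0.37, limma adjusted p = 6.66e-08. The order of PDZK1IP1 and S100A5 depended on the pseudocount: at 1 their changes were -9.09 and -9.99, and at 64 they were -6.72 and -6.24. MAL, a proteolipid that sorts proteins to the apical membrane and is also made by T cells, was at 4.19, 5.66 and 6.46 against 13.02, 13.30 and 13.24 (-7.69, SE 0.50, limma adjusted p = 6.67e-07). KRT8 and KRT7, keratins of simple and transitional epithelia, differed by -7.45 and -7.18. KRT8 was at 4.12, 4.61 and 6.68 in lymphoma and 12.18, 13.09 and 12.63 in TCC, and KRT7 at 4.76, 5.22 and 5.76 and 12.44, 11.94 and 13.04. FXYD3, a regulator of the sodium pump, NIPAL1, a magnesium transporter, GABRP, a GABA receptor subunit of epithelia, and RAB27B, a GTPase of secretory vesicles, differed by -7.42, -7.32, -7.28 and -6.95.

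EPCAM, the epithelial adhesion molecule, had the widest spread of the 10 in lymphoma. Its levels were 4.90, 4.65, 6.24, 5.97, 10.12, 6.24 and 11.11 in Lymphoma_0 to Lymphoma_6 and 13.76, 14.27 and 13.58 in TCC, a change of -6.83, SE 1.21, limma adjusted p = 0.00187. Lymphoma_4 and Lymphoma_6 were high among the lymphomas and still below each TCC. The urothelial list in these tumors was at a mean of 6.04 and 5.82, against 5.47 to 5.69 in the other lymphomas and 8.95 to 9.50 in TCC. Some other epithelial genes were also high there. KRT18 was at 8.92 and 9.06, against at most 7.06 in the other lymphomas, and SFN at 7.77 and 7.53, against at most 6.55. CDH1 was at 9.52 in Lymphoma_4 and 7.49 in Lymphoma_6, against at most 8.09. KRT8, at 4.16 and 4.61, and KRT7, at 5.22 and 4.77, were within the range of the other lymphomas. KRT8 reached at most 6.68 in any lymphoma.

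Genes shared by most leukocytes were nearly all higher in lymphoma. Of 28 such genes measured, 25 were higher in lymphoma and 0 in TCC, against a background of 5.48% of all genes, with a median log2 fold change of 3.32 beside 0.12 over all genes; the count was 23 to 25 under every alternative setting. PTPRC was at 12.21, 12.98 and 13.59 in lymphoma and 8.42, 7.83 and 8.30 in TCC (4.72, SE 0.29, limma adjusted p = 4.08e-07). RAC2, the GTPase of the blood cell cytoskeleton and oxidase, was at 10.40, 11.30 and 11.74 and 6.72, 6.11 and 6.81 (4.63, SE 0.30, limma adjusted p = 5.97e-07). CD53, a tetraspanin, was at 11.82, 12.52 and 13.29 against 8.24, 7.40 and 8.35, and CD48, an adhesion ligand of lymphocytes, at 12.27, 12.72 and 13.21 against 8.94, 7.69 and 8.25. The changes of CD53 and CD48 were 4.62 and 4.44, and none of the 4 genes overlapped between groups.

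Signal and motility proteins followed. VAV1, an exchange factor of Rac under antigen receptors, and DOCK2, its counterpart in migrating lymphocytes, differed by 4.17 and 4.15. LCP1, an actin bundler, was bright in both groups, at 14.40, 14.87 and 15.13 in lymphoma and 11.25, 12.01 and 11.36 in TCC, a change of 3.30, SE 0.22, limma adjusted p = 6.83e-07. ITGAL, the alpha chain of the integrin LFA-1, was at 8.93, 10.57 and 11.63 against 5.60, 6.15 and 6.32 (4.12, SE 0.55, limma adjusted p = 0.000213). RUNX3, LSP1 and CD52, the 3 members that did not pass, had log2 fold changes of 0.46, 1.28 and 1.75.

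Of 24 B cell genes measured, 10 were higher in lymphoma and 0 in TCC, with a median change of 1.79. CD22, an inhibitory co-receptor of the B cell receptor, was at 7.55, 10.54 and 13.15 in lymphoma and 6.34, 4.90 and 4.78 in TCC (5.24, SE 1.04, limma adjusted p = 0.004). CD79A and CD79B, the signaling chains of the B cell receptor, were at 7.25, 9.03 and 11.32 and 6.61, 7.83 and 10.97 in lymphoma. In TCC, CD79A was at 5.67, 4.13 and 6.50 and CD79B at 5.72, 5.73 and 5.63, so that neither gene overlapped, and the changes were 3.73, SE 0.81, limma adjusted p = 0.00715 and 2.94, SE 0.84, limma adjusted p = 0.0316. CD40, the receptor for T cell help, and PLCG2, the phospholipase under the B cell receptor, differed by 3.49 and 3.47. PAX5, the factor of B cell identity, was at 5.22, 5.79 and 6.99 in lymphoma and 4.89, 5.16 and 5.91 in TCC, with overlap (0.80, SE 0.47, limma adjusted p = 0.3).
The B cell count was less firm than the leukocyte count. It was 6, 5 and 6 without TCC_0, TCC_1 and TCC_2. CD79A had a limma adjusted p of 0.053 without TCC_1, and CD79B had 0.0966, 0.0951, 0.104 and 0.055 without TCC_0, TCC_1, TCC_2 and Lymphoma_5 and 0.0642 at a pseudocount of 64.

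Among 29 T cell genes, 11 were higher in lymphoma and 0 in TCC, and all 29 had a positive log2 fold change, with a median of 2.48. CD2, an adhesion receptor of T cells and natural killer cells, varied little among the lymphomas beside most of these genes, at 11.37, 12.04 and 13.62 in lymphoma and 7.65, 7.52 and 7.16 in TCC (4.85, SE 0.45, limma adjusted p = 1.06e-05). CD247, the zeta chain of the T cell receptor complex, was at 6.68, 7.97 and 11.18 in lymphoma and 4.32, 4.41 and 4.26 in TCC (4.49, SE 0.94, limma adjusted p = 0.00549). CD3E, the epsilon chain, was at 7.75, 8.57, 6.73, 12.60, 12.83, 10.73 and 12.44 in Lymphoma_0 to Lymphoma_6 and 6.40, 6.59 and 6.24 in TCC (3.83, SE 1.20, limma adjusted p = 0.0469), and Lymphoma_2 exceeded the highest TCC by 0.14. Members that vary as widely without passing were LCK, the kinase of the T cell receptor, at 5.20, 8.48 and 11.15 in lymphoma and 5.34, 5.01 and 5.23 in TCC (3.14, SE 1.18, limma adjusted p = 0.0928), CD5, a T cell co-receptor, with 2.36, SE 1.23, limma adjusted p = 0.235, and CD8A, a chain of the cytotoxic co-receptor, with 1.25, SE 0.97, limma adjusted p = 0.45.
The T cell count was 7, 6 and 7 without TCC_0, TCC_1 and TCC_2, 7 at a pseudocount of 64 and 5 with the 3-prime over 5-prime ratio as a covariate. Under that covariate CD247 had an adjusted p of 0.0651. CD3E lost its call under 12 of 21 alternatives: its adjusted p was 0.131, 0.122 and 0.143 without TCC_0, TCC_1 and TCC_2, and 0.0744, 0.0688, 0.0742 and 0.0738 without Lymphoma_3, Lymphoma_4, Lymphoma_5 and Lymphoma_6. It was 0.34 with the covariate, where the change was 2.23, 0.0641 with the replicate block, where the change was 1.27, 0.0649 at a pseudocount of 64, 0.0602 with quantile normalization and 0.0714 without the variance trend. The replicate block matches tumors by the number in their labels. Lymphoma_3 to Lymphoma_6 have no TCC of the same number and so add nothing to that difference.

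Set side by side, the lymphomas spread more in the lineage genes than in the leukocyte genes. The mean level of the 28 leukocyte genes was 10.05 to 10.54 over the 7 lymphomas. The mean of the 24 B cell genes was 9.53, 7.44, 9.35, 6.98, 7.37, 8.65 and 6.48 in Lymphoma_0 to Lymphoma_6, and 5.46 to 5.94 in TCC. The mean of the 29 T cell genes was 7.23, 7.13, 6.90, 9.68, 10.24, 8.55 and 9.79 in the same order, and 5.39 to 5.80 in TCC. Lymphoma_0 and Lymphoma_2 were highest for B cell genes and near the bottom for T cell genes, Lymphoma_3, Lymphoma_4 and Lymphoma_6 were the reverse, Lymphoma_5 was intermediate in both, and Lymphoma_1 was near the middle for B cell genes and next to lowest for T cell genes. The labels name no immunophenotype, and no tumor was regrouped on these values. Every lymphoma was above every TCC in both means.

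**Figure D3:**
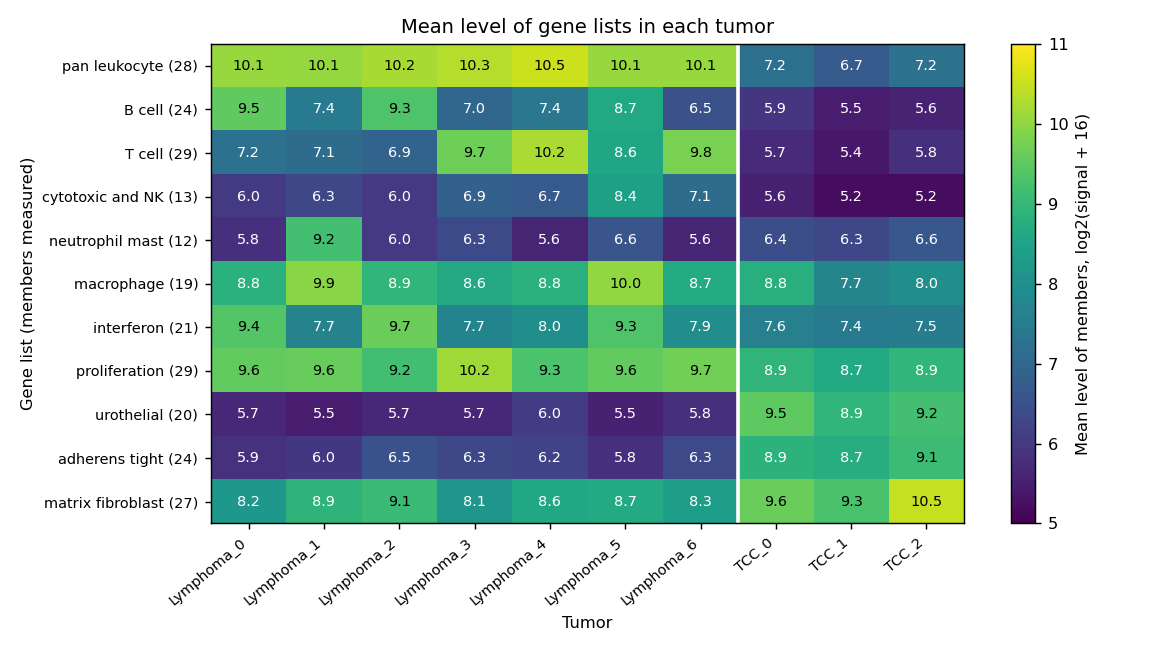
Mean level, log2(signal + 16), of the measured members of 11 gene lists (rows, with the number of members) in each of the 7 lymphomas and 3 TCCs (columns), with darker cells lower. The leukocyte row is even across the lymphomas, the B cell row peaks in Lymphoma_0 and Lymphoma_2, the T cell row in Lymphoma_3, Lymphoma_4 and Lymphoma_6, and the neutrophil and mast cell row in Lymphoma_1.

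Cytotoxic and interferon genes also varied within lymphoma. Only 2 of 13 cytotoxic and natural killer genes were higher in lymphoma, GZMA and EOMES, beside 5.48% of all genes. The count was 0 to 4 across alternatives, with 0 without TCC_1, TCC_2, Lymphoma_1, Lymphoma_3 or Lymphoma_6. Lymphoma_5 had the highest mean, 8.41, against 6.0 to 7.12 in the other lymphomas. Of 21 interferon-responsive genes, 3 were higher in lymphoma and 1 in TCC, beside 5.48% and 7.52% of all genes, with a median change of 0.87. GBP1, a guanylate-binding protein induced by interferon gamma, was at 10.35, 11.39 and 13.02 in lymphoma and 6.30, 6.24 and 5.91 in TCC (5.17, SE 0.46, limma adjusted p = 7.95e-06). OAS3, an antiviral synthetase, was at 6.40, 7.25 and 8.22 against 5.55, 6.24 and 4.59 (1.80, SE 0.44, limma adjusted p = 0.0141). RSAD2, the antiviral protein viperin, moved the other way, at 4.55, 7.36 and 7.99 in lymphoma and 8.66, 8.87 and 9.40 in TCC (-2.41, SE 0.75, limma adjusted p = 0.0452). CXCL10, the third gene higher in lymphoma, overlapped between the groups. The call of OAS3 was lost without TCC_2 (limma adjusted p = 0.0939) and that of RSAD2 without any TCC (0.105, 0.121 and 0.168) or without Lymphoma_1, Lymphoma_4 or Lymphoma_6 (0.068, 0.0533 and 0.0573), and the count higher in lymphoma was 1 without TCC_2. OAS3 and RSAD2 also lost their calls with the 3-prime over 5-prime covariate (0.0502 and 0.299) and with the replicate block (0.149 and 0.0503), and RSAD2 at a pseudocount of 1 (0.0798), with quantile normalization (0.0507) and without the variance trend (0.0618). Mean levels of the interferon list were 9.34 to 9.65 in Lymphoma_0, Lymphoma_2 and Lymphoma_5, 7.68 to 7.99 in the other 4 and 7.44 to 7.61 in TCC.

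Cytokine receptors and homing genes formed a second lymphoid group. Of 26 genes of lymphocyte cytokine signaling, 7 were higher in lymphoma, and of 17 homing genes, 9, with 0 higher in TCC in both. IL7R, the interleukin 7 receptor, was at 9.53, 11.07 and 12.53 in lymphoma and 8.51, 7.98 and 7.78 in TCC (2.71, SE 0.54, limma adjusted p = 0.00404). JAK1, a kinase of these receptors that most cells make, was bright in both groups and differed by 1.38, SE 0.25, limma adjusted p = 0.00226, with levels of 11.86, 12.70 and 13.36 and 11.21, 11.38 and 11.25. JAK3, which binds the common gamma chain, differed by 2.34, SE 0.61, limma adjusted p = 0.0189, with overlap at 4.37, 6.86 and 7.68 against 4.58, 4.17 and 4.46. Without TCC_0, TCC_1 and TCC_2 its adjusted p was 0.0596, 0.0809 and 0.0677, with the 3-prime over 5-prime covariate 0.0871 and with the replicate block 0.127. The cytokine count was 4 without TCC_0 or TCC_1, and the homing count was 5 without TCC_1. ITGA4, the integrin alpha 4 chain of lymphocyte homing, was at 10.78, 13.05 and 14.20 and 7.99, 8.66 and 8.58 (4.51, SE 0.52, limma adjusted p = 6.70e-05). CD69, which keeps activated lymphocytes in tissue, was among the tightest, at 8.44, 8.84 and 9.42 and 5.06, 4.35 and 5.23 (3.90, SE 0.32, limma adjusted p = 3.48e-06). CCL21, the other ligand of CCR7, ran from 7.02 to 12.84 in lymphoma and was at 6.50, 5.31 and 4.66 in TCC (4.50, SE 0.90, limma adjusted p = 0.00416); with the 3-prime over 5-prime covariate its adjusted p was 0.0509.

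Lymphoid transcription factors were higher in lymphoma for a part of the list. Of 30 nuclear regulators, 11 were higher in lymphoma and 0 in TCC, a count that fell to 5, 6 and 6 without TCC_0, TCC_1 and TCC_2, to 7 without Lymphoma_6 and to 6 without the variance trend. IKZF1, the lymphoid factor Ikaros, was at 6.25, 7.34 and 7.66 in lymphoma and near the floor in TCC, at 4.29, 4.24 and 4.35 (2.88, SE 0.37, limma adjusted p = 0.000168). With TCC near the floor, the size of this change depended on the pseudocount, and was 4.81 at 1 and 1.53 at 64. IRF8, a factor of B cells and dendritic cells, was at 7.93, 8.46 and 9.76 against 5.81, 5.43 and 5.76 (3.03, SE 0.39, limma adjusted p = 0.000148). BATF, an AP-1 partner of activated lymphocytes, differed by 2.13, SE 0.34, limma adjusted p = 0.000828.

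Genes of antigen presentation were described by class, with no test between the classes. In the MHC class I pathway, 6 of 12 genes were higher in lymphoma and 0 in TCC, with all 12 positive and a median of 1.35. PSMB8, an immunoproteasome subunit, was at 10.48, 10.93 and 12.0 in lymphoma and 8.73, 7.55 and 7.82 in TCC (2.96, SE 0.34, limma adjusted p = 5.69e-05). B2M, the light chain of class I, was at 13.95, 14.47 and 14.87 against 13.32, 12.36 and 12.70 (1.73, SE 0.25, limma adjusted p = 0.000357). PSMB9, another immunoproteasome subunit, differed by 2.02, SE 0.30, limma adjusted p = 0.000543; in a fit over 19 tumors of 4 types its adjusted p was 0.0896, and the class I count was 3. In the class II pathway, 2 of 11 genes were higher in lymphoma, beside 5.48% of all genes, and the median was 0.35. They were DLA-DOA, a chain of the class II modulator found in B cells, and CTSS, the protease cathepsin S that trims the invariant chain. DLA-DOA was at 8.64, 10.13 and 11.22 in lymphoma and 5.83, 5.65 and 5.94 in TCC (4.37, SE 0.46, limma adjusted p = 2.69e-05), and CTSS at 11.58, 11.80 and 13.16 and 10.89, 10.09 and 10.04 (1.67, SE 0.32, limma adjusted p = 0.00351). The other 9 class II genes had changes of -0.63 to 0.94, and the list mean was 10.31 to 11.81 in lymphoma and 9.53 to 11.30 in TCC, with overlap.

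Markers of macrophages and dendritic cells differed for some members only. Of 19 macrophage genes, 7 were higher in lymphoma and 0 in TCC, with a median of 0.88, and the count was 4 without TCC_1, without TCC_2 and with the 3-prime over 5-prime covariate. MARCO, a scavenger receptor, was at 7.94, 8.86 and 10.44 in lymphoma and 5.25, 5.56 and 5.14 in TCC (3.75, SE 0.49, limma adjusted p = 0.00017). CD209, a lectin of dendritic cells and macrophages, was at 7.42, 7.70 and 11.16 against 5.84, 4.52 and 5.04 (3.17, SE 0.70, limma adjusted p = 0.00756), with the highest level in Lymphoma_5. LYZ, lysozyme, differed by 1.93, SE 0.33, limma adjusted p = 0.00131. CSF1R, the receptor that defines the lineage, was close between groups, at 9.15, 9.57 and 10.07 in lymphoma and 9.10, 8.20 and 9.17 in TCC (0.79, SE 0.26, limma adjusted p = 0.0588). Among 13 dendritic and follicular genes, 4 were higher in lymphoma and 1 in TCC. LAMP3, a membrane protein of mature dendritic cells, was at 9.61, 11.83 and 13.33 and 6.22, 6.36 and 6.70 (5.21, SE 0.68, limma adjusted p = 0.00017). The gene higher in TCC was TNFRSF21, a death receptor of wider use, at 7.46, 8.16 and 8.70 in lymphoma and 11.69, 11.32 and 10.75 in TCC (-3.08, SE 0.29, limma adjusted p = 1.26e-05).

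Urothelial genes marked the TCCs. Of 20 measured, 15 were higher in TCC, against a background of 7.52% of all genes, and 0 in lymphoma, with a median log2 fold change of -3.12; the count was 13 to 16 under every alternative. The uroplakins are the proteins of the plaques on the luminal face of the bladder. UPK1A was at 4.08, 4.46 and 6.88 in lymphoma and 12.56, 11.29 and 11.48 in TCC (-6.74, SE 0.65, limma adjusted p = 1.33e-05). UPK1B was at 4.20, 5.18 and 6.73 against 12.10, 11.72 and 11.75 (-6.46, SE 0.52, limma adjusted p = 3.03e-06), and UPK3A at 4.28, 4.83 and 6.76 against 11.82, 10.42 and 11.19 (-5.98, SE 0.57, limma adjusted p = 1.28e-05). UPK2 was lower, at 4.65, 5.38 and 5.83 and 8.83, 8.01 and 7.86 (-2.88, SE 0.38, limma adjusted p = 0.000212). No lymphoma reached the lowest TCC in any of the 4. The regulators KLF5, a factor of proliferating epithelium, and PPARG, a nuclear receptor of urothelial differentiation, were at 13.96, 13.75 and 13.34 and at 13.30, 13.07 and 12.95 in the TCCs. Their lymphoma levels were 4.81, 7.11 and 8.49 and 5.96, 7.79 and 8.40, which gives changes of -6.63, SE 0.63, limma adjusted p = 1.24e-05 and -5.57, SE 0.42, limma adjusted p = 1.81e-06. SNX31, a sorting nexin that binds uroplakins, differed by -6.52, SE 0.48, limma adjusted p = 1.49e-06.

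GATA3 did not pass as a urothelial marker here. It is a transcription factor of both urothelium and T cells. Its levels were 7.02, 9.55, 6.91, 12.26, 11.72, 7.41 and 12.74 in Lymphoma_0 to Lymphoma_6 and 12.75, 12.02 and 12.35 in TCC, a change of -2.71, SE 1.23, limma adjusted p = 0.166. Lymphoma_3 and Lymphoma_6 lay within the range of the TCCs and Lymphoma_4 just below it, and these 3 were also highest for the T cell list. With the 3-prime over 5-prime ratio as a covariate the change was -4.61 with an adjusted p of 0.0341.

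Regulators of epithelial state were higher in TCC for most members. Of 21 transcription and splicing factors of epithelia, 15 were higher in TCC and 0 in lymphoma, and all 21 had a negative change, with a median of -2.63. ESRP1 and ESRP2, the epithelial splicing regulators, were at 12.30, 11.21 and 11.46 and at 8.74, 8.38 and 9.47 in TCC. In lymphoma ESRP1 was at 5.21, 6.46 and 8.13 and ESRP2 at 4.21, 4.88 and 5.67, and the changes were -5.14, SE 0.54, limma adjusted p = 2.95e-05 and -3.98, SE 0.43, limma adjusted p = 3.72e-05. GRHL2, a grainyhead factor of epithelial junctions, was at 4.52, 5.13 and 5.80 against 9.44, 9.04 and 9.19 (-3.97, SE 0.38, limma adjusted p = 1.28e-05). EHF and ELF3, ETS factors of epithelia, differed by -5.82 and -3.63. Of 12 keratin genes, 5 were higher in TCC. KRT18, the partner of KRT8, was at 5.74, 6.97 and 9.06 and 12.87, 13.90 and 13.27 (-6.0, SE 0.61, limma adjusted p = 2.17e-05). KRT23 and KRT13 spread among the TCCs: KRT23 was at 9.97, 7.16 and 10.33 and KRT13, a keratin of stratified mucosa, at 10.83, 7.17 and 9.71. In both, TCC_1 was the low one. KRT23 differed by -3.70, SE 0.76, limma adjusted p = 0.00485 and KRT13 by -2.66, SE 0.75, limma adjusted p = 0.028, the latter with overlap and with adjusted p of 0.183 and 0.125 without TCC_0 and without TCC_2 and 0.0868 with 19 tumors. Without TCC_1, 8 keratins were called.

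Most genes of 3 lists of cell junctions were higher in TCC. The counts were 17 of 24 for adherens and tight junctions, 7 of 11 for desmosomes and 13 of 19 for hemidesmosomes, laminins and their integrins, with medians of -2.65, -2.51 and -1.82 and 0 genes higher in lymphoma in each. CDH1, E-cadherin, was at 5.79, 6.30 and 9.52 in lymphoma and 13.02, 11.83 and 13.14 in TCC (-5.61, SE 0.70, limma adjusted p = 0.000121). CXADR, a tight junction protein that adenoviruses use as a receptor, was at 4.65, 4.94 and 6.44 against 10.92, 9.38 and 10.68 (-5.20, SE 0.47, limma adjusted p = 8.05e-06). CLDN1 and CGN, a claudin and the junction plaque protein cingulin, differed by -4.41 and -4.42, and CGN was within 9.81 to 9.97 in the 3 TCCs. PPL, the cornified envelope and desmosome linker periplakin, was at 4.38, 5.17 and 5.73 and 11.29, 11.67 and 11.69 (-6.42, SE 0.38, limma adjusted p = 3.30e-07). PERP, a desmosomal protein under p53 and p63, and DSP and JUP, the plaque proteins desmoplakin and plakoglobin, differed by -5.34, -3.27 and -3.29. ITGB6, an integrin chain made by epithelia, was at 4.29, 5.25 and 5.83 against 9.06, 9.67 and 9.17 (-4.07, SE 0.40, limma adjusted p = 1.75e-05). LAMA3, a laminin chain of epithelial basement membranes, was almost equal among the TCCs, at 9.70, 9.67 and 9.69, and at 6.27, 6.69 and 7.29 in lymphoma (-2.92, SE 0.30, limma adjusted p = 2.38e-05). ITGA6 and ITGB4, the hemidesmosome integrin, differed by -2.55 and -2.62, with ITGA6 at 12.38 in TCC_1 and 9.52 and 9.34 in the others. The hemidesmosome count was 8 without TCC_1 and 8 without TCC_2.

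Secretory and transport genes were higher in TCC for a part of each list: 10 of 24 mucosal and secretory genes and 11 of 22 transporters and channels, with 0 higher in lymphoma. PIGR, the receptor that carries IgA across epithelia, was at 4.58, 5.44 and 6.02 in lymphoma and 12.53, 12.18 and 11.83 in TCC (-6.74, SE 0.34, limma adjusted p = 8.18e-08), with the same direction in all 7 of its probesets. MUC1, a membrane mucin, was at 4.39, 5.47 and 6.23 against 12.02, 11.17 and 11.89 (-6.33, SE 0.42, limma adjusted p = 7.01e-07). TSPAN8, a tetraspanin of carcinoma, was the most uneven in TCC, at 8.56, 12.54 and 11.23, and at 4.18, 4.70 and 6.19 in lymphoma (-5.79, SE 0.72, limma adjusted p = 0.000116). SPINT1, an inhibitor of membrane serine proteases, and the proteases TMPRSS2 and TMPRSS4 differed by -5.98, -5.42 and -5.45. KCNK1, a potassium leak channel, was at 4.42, 6.27 and 6.86 and 11.77, 11.30 and 11.62 (-5.51, SE 0.44, limma adjusted p = 3.27e-06). SLC14A1, the urea transporter of urothelium and red cells, was at 6.03, 6.75 and 9.03 and 11.90, 11.46 and 12.02 (-4.58, SE 0.55, limma adjusted p = 9.47e-05). The transport count was 7 and 6 without TCC_0 and TCC_2, and 7 with the 3-prime over 5-prime covariate or with dim genes removed.

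ErbB, MET and FGFR receptors pass on growth signals in epithelia and are targets of kinase inhibitors. Of 28 receptors, ligands and regulators, 11 were higher in TCC, 0 in lymphoma and 17 were not called, with a median of -1.28. ERBB3, the kinase-impaired partner of ERBB2, was at 4.32, 5.30 and 6.67 in lymphoma and 10.64, 10.35 and 10.28 in TCC (-5.09, SE 0.50, limma adjusted p = 1.54e-05). EGFR was at 5.94, 7.05 and 7.35 against 9.91, 11.39 and 9.99 (-3.59, SE 0.40, limma adjusted p = 4.24e-05), and FGFR2 at 4.68, 5.96 and 8.33 against 9.38, 9.39 and 9.08 (-3.32, SE 0.62, limma adjusted p = 0.00289). ERBB2, named after its values were seen, was at 4.17, 5.05 and 6.47 against 7.89, 6.66 and 7.65 (-2.14, SE 0.57, limma adjusted p = 0.0211), and MET, the receptor of hepatocyte growth factor, at 4.51, 6.48 and 7.23 against 8.39, 8.55 and 8.21 (-2.18, SE 0.54, limma adjusted p = 0.0151). None of the 5 receptors overlapped between groups. EFNA1, an ephrin ligand, and ERRFI1, a feedback inhibitor of EGFR, differed by -3.54 and -2.99. FGFR3, a receptor often mutated in human bladder cancer, was at 4.31, 6.05 and 7.0 in lymphoma and 7.49, 6.51 and 6.58 in TCC, with overlap (-1.06, SE 0.53, limma adjusted p = 0.219). The count was 6 and 7 without TCC_0 and TCC_2, and 7 with the covariate, with a pseudocount of 1 or with dim genes removed. Without TCC_0 or TCC_2, ERBB2 had adjusted p of 0.105 and 0.0916, and without TCC_0, TCC_1 or TCC_2, MET had 0.0608, 0.069 and 0.0509. MET had 0.097 with the covariate and 0.0771 with the replicate block, and ERBB2 0.0557 at a pseudocount of 1. In the 9 melanomas and sarcomas ERBB3 was at 6.22 to 10.48, EGFR at 5.96 to 10.23, ERBB2 at 4.20 to 6.88, MET at 5.77 to 11.02 and FGFR2 at 5.38 to 12.18. All 5 overlapped the TCC levels, and the highest of the 9 exceeded every TCC for MET and FGFR2.

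Of 24 genes of the prostaglandin pathway, on which the cyclooxygenase inhibitors act, 4 were higher in TCC and 1 in lymphoma, 19 were not called, and the median was -0.22. Of all genes, 7.52% were called higher in TCC and 5.48% higher in lymphoma, and 1 of 24 is no more than the latter. PTGS1, cyclooxygenase 1, was at 4.24, 6.01 and 8.10 in lymphoma and 10.99, 8.93 and 11.04 in TCC, with no overlap (-4.44, SE 0.84, limma adjusted p = 0.00294). PTGS2, the inducible cyclooxygenase 2, was at 10.68, 8.80, 7.40, 4.12, 8.33, 9.50 and 6.37 in Lymphoma_0 to Lymphoma_6 and 11.45, 9.06 and 12.56 in TCC, with overlap, and was not called (-3.14, SE 1.14, limma adjusted p = 0.0833). Without Lymphoma_0, its change was -3.61 with an adjusted p of 0.0387. PLA2G4A, the phospholipase that releases arachidonic acid, was at 6.52, 6.96 and 8.65 against 9.98, 9.69 and 10.31 (-2.90, SE 0.41, limma adjusted p = 0.00034). HPGD, which breaks prostaglandins down, was at 4.22, 7.10 and 7.90 against 9.10, 11.10 and 8.20 (-2.62, SE 0.73, limma adjusted p = 0.0279), and ABCC4, which exports them, at 4.72, 5.65 and 6.48 against 7.91, 8.58 and 7.40 (-2.34, SE 0.48, limma adjusted p = 0.00479). PTGER4, the prostaglandin E2 receptor EP4, was the gene higher in lymphoma, at 9.47, 10.41 and 12.68 against 8.19, 8.24 and 7.65 (2.68, SE 0.60, limma adjusted p = 0.00817). Calls in this group that ended were those of HPGD without TCC_0 (limma adjusted p = 0.0706) and TCC_1 (0.183), with the 3-prime over 5-prime covariate (0.0518) and at a pseudocount of 1 (0.0751), of ABCC4 at a pseudocount of 1 (0.0602) and of PTGER4 with the 3-prime over 5-prime covariate (0.0531), and the count higher in TCC was 2 at a pseudocount of 1. The 2 probesets of ABCC4 differed in direction.

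The study matched each tumor to drugs by several methods, some of them through single genes and others through whole signatures or networks. Single genes named in its matches were followed as a list. The study chose them on tumors that include these, so the direction of the list is not independent evidence. Its matches rest on levels set against normal dog tissue, where the changes here are between 2 tumor types. Of 22 measured, 4 were higher in lymphoma and 3 in TCC, beside 5.48% and 7.52% of all genes called in those directions. ESR1, the estrogen receptor, was at 4.20, 4.38 and 6.01 in lymphoma and 10.08, 8.95 and 9.91 in TCC (-5.08, SE 0.46, limma adjusted p = 8.46e-06), with 6.01 in Lymphoma_6 and at most 4.40 in the other lymphomas. PDGFRA, a receptor of platelet-derived growth factor and a target of multikinase inhibitors, was at 7.14, 7.82 and 8.48 against 12.62, 12.31 and 11.67 (-4.36, SE 0.29, limma adjusted p = 6.90e-07). FLT1, a VEGF receptor, was at 7.69, 8.09 and 8.86 against 8.78, 9.80 and 9.61, with overlap (-1.26, SE 0.30, limma adjusted p = 0.0125). DNMT1, the maintenance DNA methyltransferase, was at 9.76, 10.43 and 10.67 in lymphoma and 9.06, 8.77 and 8.99 in TCC (1.38, SE 0.21, limma adjusted p = 0.000691), and HDAC1, a histone deacetylase, at 10.91, 11.08 and 11.49 and 9.63, 10.08 and 10.11 (1.22, SE 0.20, limma adjusted p = 0.00102). PDE4B, the phosphodiesterase of leukocytes, differed by 1.70, SE 0.41, limma adjusted p = 0.0129, and DRD1, a dopamine receptor, by 1.62, SE 0.47, limma adjusted p = 0.0309, with overlap in DRD1 alone of the 4 genes higher in lymphoma.

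TOP2A and TOP1, the topoisomerases, and the deacetylases HDAC2 and HDAC3 lay higher in each lymphoma than in each TCC and were not called, since their changes were 0.94, SE 0.24, limma adjusted p = 0.0175 for TOP2A, 0.91, SE 0.23, limma adjusted p = 0.0175 for TOP1, 0.59, SE 0.17, limma adjusted p = 0.0357 for HDAC2 and 0.54, SE 0.20, limma adjusted p = 0.0853 for HDAC3. HTR2A, a serotonin receptor, was at 4.84, 6.07 and 11.03 in lymphoma and 4.19, 4.26 and 4.46 in TCC (2.66, SE 1.18, limma adjusted p = 0.157). KDR, the main VEGF receptor, was at 8.28, 8.77 and 10.98 against 10.35, 11.11 and 10.33 (-1.34, SE 0.53, limma adjusted p = 0.11), and KIT, at 11.33 in Lymphoma_1, had a change of 0.16, SE 1.04, limma adjusted p = 0.943, which turned to -0.57 without that tumor and to -0.05 at a pseudocount of 1. Calls that ended were those of PDE4B without TCC_0 (limma adjusted p = 0.0507) and TCC_1 (0.0754), of DRD1 without TCC_0 (0.128), TCC_2 (0.14) and Lymphoma_6 (0.0519), and of FLT1 without TCC_1 (0.0822) and TCC_2 (0.072). DRD1 also lost its call with 19 tumors (0.058), with the covariate (0.13), with the replicate block (0.251) and, by a change of 0.89, at a pseudocount of 64. FLT1 also lost it with 19 tumors (0.13) and with the covariate (0.085). The count higher in lymphoma was 2 without TCC_0. Among 21 angiogenic kinases and ligands, 4 were higher in TCC, PDGFRA, FLT1, VEGFA and KITLG, and 0 in lymphoma, and 1 was called with the covariate and in the fit over 19 tumors, and 2 without TCC_2. Of all genes, 7.52% were called higher in TCC.

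Of 29 proliferation genes, 6 were higher in lymphoma, 0 in TCC and 23 were not called, beside 5.48% of all genes called higher in lymphoma, and 28 had a positive change, with a median of 0.71. MCM6, a subunit of the replication helicase, was at 12.01, 12.10 and 12.76 in lymphoma and 10.38, 10.85 and 10.63 in TCC (1.61, SE 0.20, limma adjusted p = 0.00012). BUB1B, a mitotic checkpoint kinase, was at 8.97, 9.64 and 10.83 against 7.89, 7.66 and 8.45 (1.79, SE 0.35, limma adjusted p = 0.00365), and AURKB, the kinase of chromosome alignment, at 9.08, 9.96 and 10.23 against 8.44, 8.81 and 8.12 (1.40, SE 0.27, limma adjusted p = 0.00336). MCM5 differed by 1.94, SE 0.48, limma adjusted p = 0.015, and its call ended without TCC_0 (limma adjusted p = 0.064) and TCC_2 (0.0851) and with the covariate (0.154). The count was 3 without TCC_0 and 3 with the 3-prime over 5-prime covariate. PARP1, a DNA repair enzyme, was at 9.98, 10.45 and 11.07 and 8.98, 9.28 and 9.05 (1.48, SE 0.26, limma adjusted p = 0.00156) and was, with DNMT1, 1 of 2 called among 24 targets of nucleotide and DNA drugs, a share near the 5.48% of all genes called in that direction.

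In lists of G1 and cell death regulators, the share of members called was near the 13.0% of all genes. Of 21 G1 genes, CDKN1B, the inhibitor p27, and E2F3 were higher in lymphoma, by 1.34, SE 0.28, limma adjusted p = 0.00516 and 1.33, SE 0.32, limma adjusted p = 0.0137, and SFN, the epithelial 14-3-3 protein sigma, was higher in TCC, at 4.25, 5.43 and 7.77 in lymphoma and 10.66, 10.74 and 11.15 in TCC (-5.01, SE 0.73, limma adjusted p = 0.000436). Of 18 BCL2 family and death receptor genes, 2 were higher in lymphoma and 1, TNFRSF21, in TCC. BCL2A1, a BCL2 relative of blood cells, was at 11.11, 12.01 and 13.95 in lymphoma and 9.84, 8.15 and 9.65 in TCC (3.04, SE 0.50, limma adjusted p = 0.00107). BIRC3, an inhibitor of apoptosis under NF-kappaB, differed by 1.82, SE 0.44, limma adjusted p = 0.0137. BCL2 itself was at 7.01, 7.68 and 9.05 against 6.64, 6.0 and 6.55, without overlap, and did not pass (1.27, SE 0.44, limma adjusted p = 0.0723). The call of E2F3 ended without TCC_0 (limma adjusted p = 0.0786) and TCC_1 (0.0691), with the covariate (0.0633) and with the replicate block (0.106), that of BIRC3 without TCC_1 (0.0657) and that of CDKN1B with the covariate (0.0598). The G1 count higher in lymphoma was 1 without TCC_1 and 4 without Lymphoma_2, and the BCL2 family count was 1 without TCC_1. Among 17 genes of germinal centers and plasma cells, 4 were higher in lymphoma and 0 in TCC, a count that fell to 2, 1 and 1 without TCC_0, TCC_1 and TCC_2 and to 2 without any of Lymphoma_3 to Lymphoma_6.

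Stroma was not equal between the groups. Of 27 genes of matrix and fibroblasts, 15 were higher in TCC and 0 in lymphoma, with a median of -1.35, and the count was 8 without TCC_2 and 7 with the 3-prime over 5-prime covariate. Their mean level was 8.12 to 9.09 in lymphoma and 9.27 to 10.48 in TCC. LUM and DCN, the small proteoglycans lumican and decorin, were at 7.84, 8.05 and 9.84 and 7.85, 8.37 and 11.18 in lymphoma. In TCC, LUM was at 12.23, 11.11 and 12.47 (-3.58, SE 0.42, limma adjusted p = 7.05e-05) and DCN at 12.18, 11.53 and 12.42 (-3.15, SE 0.59, limma adjusted p = 0.00267). FAP, the protease of activated fibroblasts, was at 4.39, 6.06 and 7.49 against 9.53, 7.95 and 10.58 (-3.25, SE 0.69, limma adjusted p = 0.00583), and VCAN, a large proteoglycan, at 7.0, 7.76 and 8.94 against 9.79, 10.07 and 12.06 (-2.73, SE 0.48, limma adjusted p = 0.00194). FAP lost its call without TCC_2 (limma adjusted p = 0.0506) and with the covariate (0.0649). S100A6, a calcium-binding protein that epithelia make too, was at 11.85, 12.98 and 13.43 and 16.27, 15.92 and 16.01 (-3.25, SE 0.31, limma adjusted p = 1.31e-05). PDGFRA, above, is also a receptor of fibroblasts, and the part of stroma in its difference was not tested.

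Genes of smooth muscle and vessels were called no more often than the 13.0% of all genes. Of 17 smooth muscle genes, 1 was called, RGS5 of pericytes, higher in TCC (-2.09, SE 0.61, limma adjusted p = 0.033), and of 17 endothelial genes, EMCN was higher in TCC (-1.29, SE 0.34, limma adjusted p = 0.0191) and LYVE1, a lymphatic marker, in lymphoma (1.32, SE 0.33, limma adjusted p = 0.0168). None of the 3 kept its call in every setting. The adjusted p of RGS5 was 0.172, 0.079 and 0.0645 without TCC_0, TCC_1 and TCC_2 and 0.0549 without Lymphoma_0, that of EMCN was 0.109 and 0.0916 without TCC_0 and TCC_2, and that of LYVE1 was 0.0978 and 0.0907 without TCC_1 and TCC_2. In the fit over 19 tumors EMCN and LYVE1 had 0.174 and 0.0512. With the covariate RGS5 and EMCN had 0.144 and 0.0723, and with the replicate block 0.0843 and 0.125. RGS5 had 0.0701 at a pseudocount of 1 and 0.0505 without the variance trend.

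Of 21 genes of xenobiotic and lipid metabolism, 4 were higher in TCC and 1 in lymphoma, 16 were not called, and the median was 0.08. Of all genes, 7.52% were called higher in TCC and 5.48% higher in lymphoma, and 1 of 21 is no more than the latter. ALDH1A1, which makes retinoic acid, was at 10.48, 6.53, 8.95, 6.78, 5.43, 8.22 and 5.01 in Lymphoma_0 to Lymphoma_6 and 13.97, 13.47 and 13.43 in TCC (-6.28, SE 0.94, limma adjusted p = 0.000547). NQO1, the quinone reductase, was at 5.42, 6.12 and 6.42 against 12.18, 10.88 and 10.66 (-5.19, SE 0.36, limma adjusted p = 9.72e-07), and MGST2, a microsomal glutathione transferase, at 5.30, 6.63 and 8.64 against 10.57, 11.61 and 10.61 (-4.25, SE 0.58, limma adjusted p = 0.000255). SCD, a fatty acid desaturase, differed by -1.27, SE 0.34, limma adjusted p = 0.0207 with overlap, and CYP1B1, a cytochrome of aromatic compounds, was the gene higher in lymphoma (2.19, SE 0.56, limma adjusted p = 0.0172). Without TCC_1 and TCC_2, SCD had adjusted p of 0.0897 and 0.119, and CYP1B1 had 0.0766 and 0.0842. In the fit over 19 tumors they had 0.0979 and 0.11, and SCD had 0.0529 with its brightest probeset. Among 21 genes of Notch, Wnt and Hedgehog signaling, 4 were higher in TCC, beside 7.52% of all genes: FZD6, JAG1, DKK3 and AXIN2. FZD6, a Wnt receptor, was at 6.22, 6.83 and 9.88 and 11.25, 11.09 and 10.98 (-3.48, SE 0.68, limma adjusted p = 0.00353), and JAG1, a Notch ligand, at 6.82, 7.17 and 7.82 and 8.52, 9.66 and 9.57 (-1.96, SE 0.33, limma adjusted p = 0.00129).

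**Figure D4:**
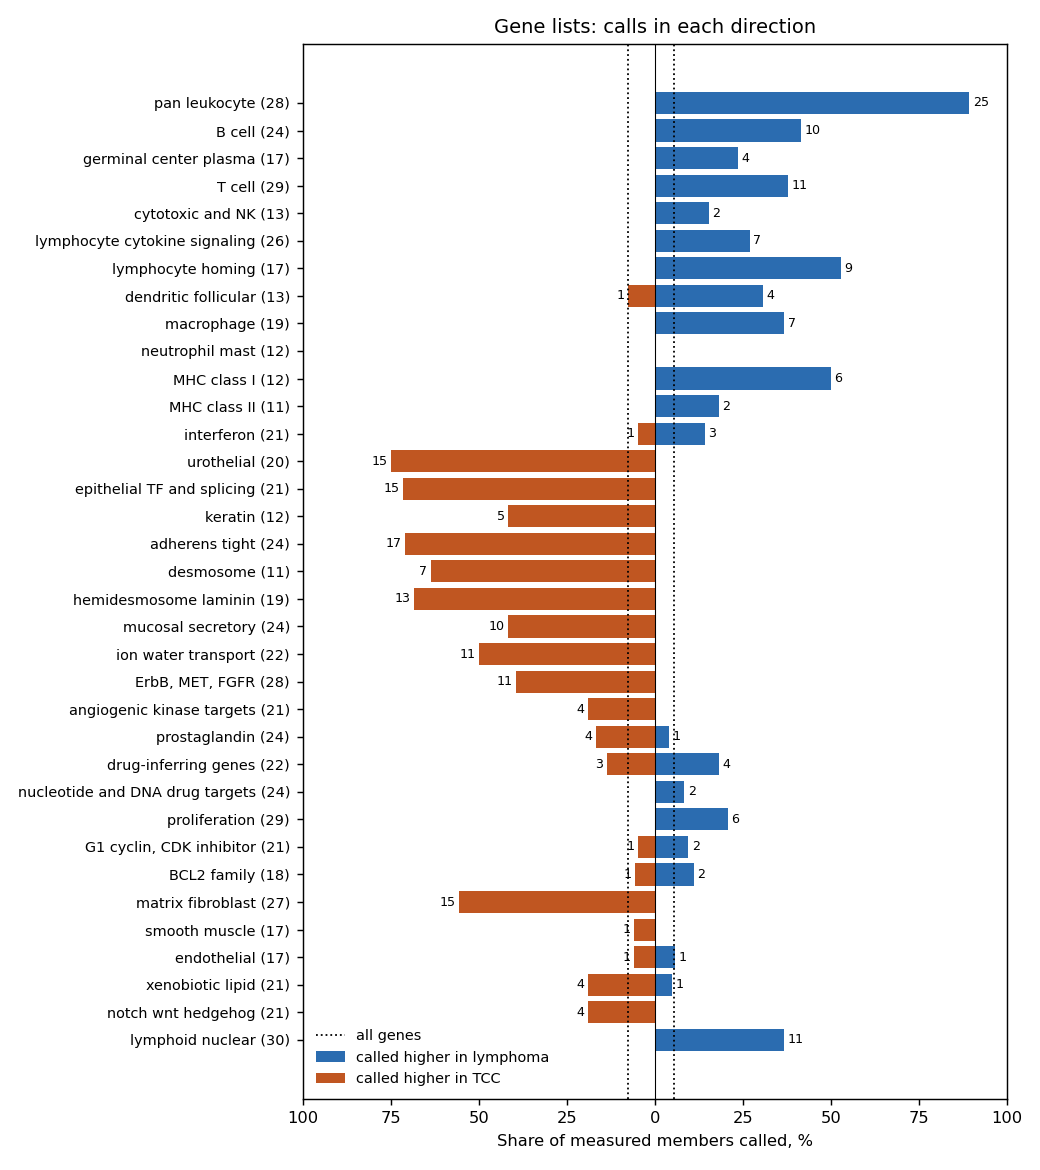
Share of measured members (horizontal, in percent) called higher in lymphoma (right) and higher in TCC (left) in 35 gene lists, with the number of members measured in brackets, counts at the bar ends and dotted lines at the 5.48% and 7.52% of all genes called in each direction. Lists of lymphoid and myeloid genes extend to the right and lists of epithelial and matrix genes to the left, and the neutrophil and mast cell list has no call.

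Levels of related genes were also set side by side, in pairs written with earlier results of these data known. In 40 pairs written as a leukocyte gene and a relative of wider or epithelial use, 35 pairs were measured in full. The leukocyte member was higher in lymphoma in 28 and in TCC in 0, beside 5.48% and 7.52% of all genes. Some of these members, such as RAC2 and VAV1, are also in the leukocyte list above, so the count is not separate from it. The other member was higher in TCC in 17, in lymphoma in 2 and not called in 16, and in 13 pairs the calls were opposite. The largest opposition was in the actin machinery. NCKAP1L, the blood cell subunit of the WAVE complex, was at 8.64, 9.23 and 9.59 in lymphoma and 5.98, 4.95 and 6.21 in TCC (3.46, SE 0.33, limma adjusted p = 1.33e-05), while NCKAP1, its widely used relative, was at 7.68, 8.07 and 8.40 and 12.11, 11.90 and 12.40 (-4.09, SE 0.23, limma adjusted p = 2.13e-07). LCP1 was higher in lymphoma, as given above, and PLS1, the plastin of microvilli, in TCC, at 6.67, 8.27 and 10.65 and 12.66, 12.10 and 12.80 (-4.07, SE 0.73, limma adjusted p = 0.0021).

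Pairs of adhesion and signaling genes behaved alike. FERMT3 and FERMT1, the kindlins of blood cells and epithelia that activate integrins, differed by 2.71 and -3.68, with FERMT3 at 7.22, 8.45 and 9.07 in lymphoma and 5.96, 5.02 and 5.90 in TCC and FERMT1 at 4.20, 4.64 and 6.76 and 8.28, 9.34 and 8.37. ELMO1 and ELMO3, partners of DOCK proteins, differed by 2.56 and -2.94. MYO1G and MYO1D, class I myosins, differed by 2.02 and -3.30, and the tetraspanins CD37 and CD9 by 3.29 and -2.89. WAS and WASL, the actin nucleation promoting factors of blood cells and of all cells, differed by 3.24, SE 0.31, limma adjusted p = 1.35e-05 and -1.45, SE 0.30, limma adjusted p = 0.00483. In other pairs the relative was not called: RAC2 differed by 4.63 and RAC1 by -0.12, and PIK3CD, the leukocyte PI3 kinase, by 4.61 and PIK3CA by 0.11. Both members were higher in lymphoma in VAV1 and VAV3 (4.17 and 3.65) and in JAK3 and JAK1. MYO1G had an adjusted p of 0.0531 with the 3-prime over 5-prime covariate.

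**Figure D5:**
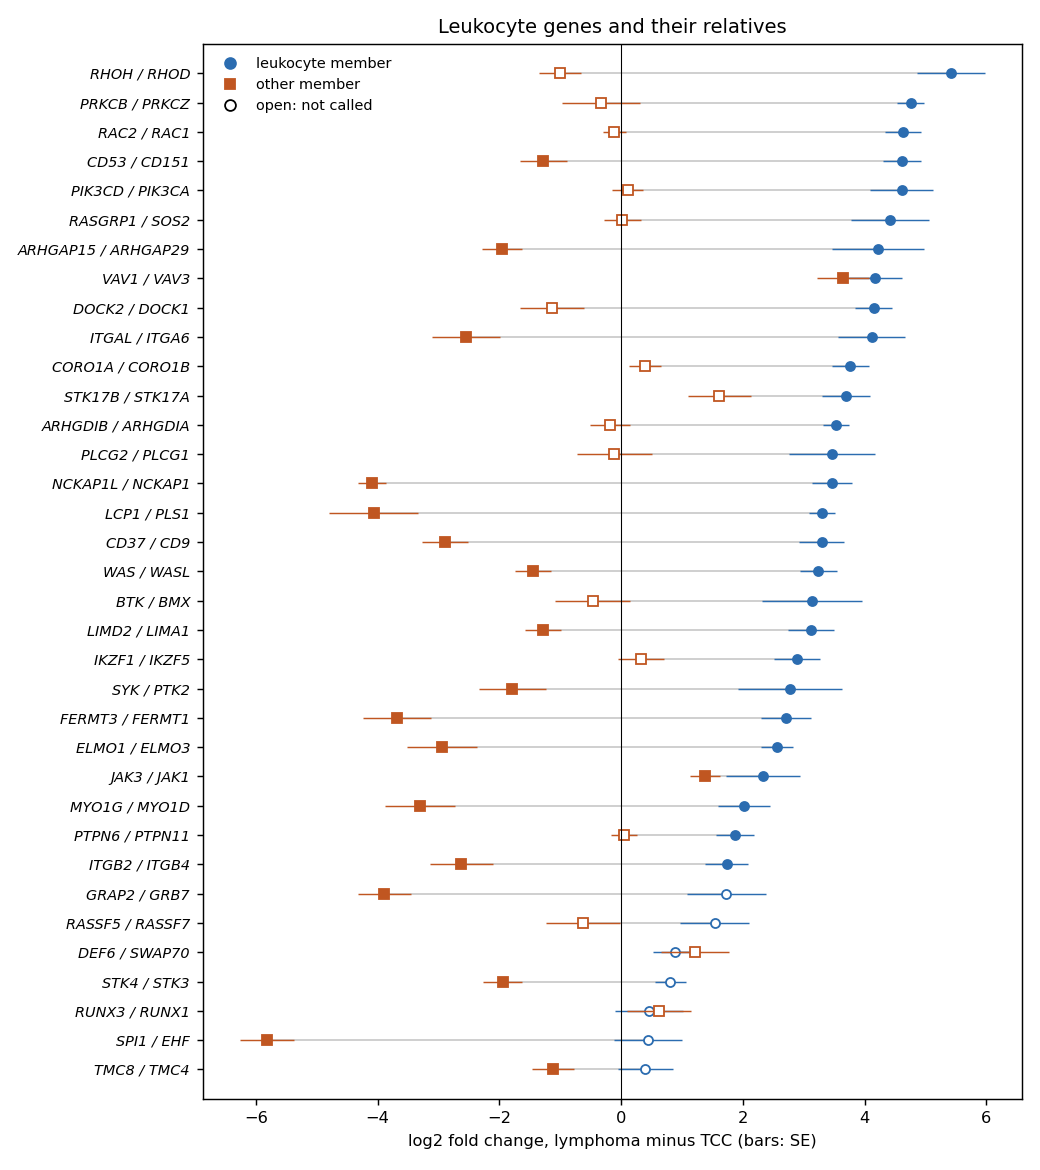
Log2 fold change, lymphoma minus TCC, with its standard error, of the leukocyte member (circles) and the other member (squares) of 35 gene pairs, with open symbols not called. All circles lie right of 0, 28 of them called, and 17 squares are called left of 0.

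The direction of a call does not say which tumor type is unusual, so the same genes were read in the 9 melanomas and sarcomas. The nasal tumor and the hepatocellular carcinoma of the series, which the study counts with TCC as carcinomas, were not read. A gene low in all 9 is therefore not shown to be particular to TCC. Of the 828 genes higher in lymphoma, 485 (58.6%) had their median in those tumors nearer the TCC mean than the lymphoma mean, and for 124 all 9 tumors lay below the lowest lymphoma. Of the 1136 genes higher in TCC, 686 (60.4%) had that median nearer the lymphoma mean and 450 (39.6%) nearer the TCC mean, and for 419 all 9 lay below the lowest TCC. UPK1B stayed at 4.17 to 5.59 in the 9 tumors and PIGR at 5.16 to 5.68, under every TCC. NCKAP1 was at 10.99 to 11.62 there and STK3, a Hippo kinase, at 9.18 to 10.16, above every lymphoma in each of the 9 tumors, and DCN was at 10.39 to 15.01. These counts describe 9 tumors, and no test was run on them.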

How the data were processed

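RNA from 10 tumors was measured on 1 array each, after whole-transcriptome amplification by the NuGEN Ovation kit. The deposited intensity values are linear MAS5 signals made by the authors, scaled per array; its software version: not given in the sources used here. Of 42924 probesets, 29254 had 1 gene symbol in the platform annotation, 439 several and 13231 none; only the first were used. Each signal entered as log2(signal + 16), with the mean taken over probesets of a symbol, without a filter, giving 15115 genes. Groups were taken from the labels. Lymphoma and TCC were compared with limma 3.58.1 in R 4.3.3 (lmFit, eBayes with variance trend, two-sided) with Benjamini-Hochberg adjustment over all genes. Array quality was compared by exact permutation over 120 assignments. The script was tested on simulated data.

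The members and gene lists were chosen with earlier results of these data known. Genes named were the 10 of largest change in each direction without overlap, the largest calls of each list, members of the drug list and of the gene pairs, and lineage markers. Lists were described by counts and medians, without a set test. Alternatives were other pseudocounts (1 and 64), quantile normalization, a filter on dim genes, the brightest probeset, no variance trend, group variances, 19 arrays of 4 tumor types, the 3-prime over 5-prime ratio as covariate, the replicate block and leaving out each tumor. Promoter sequence was not analysed here.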

Additional observations from a re-analysis of the deposited data

Results flagged for a closer look

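In 23 of 188 values examined, 1 lymphoma stood far from the other 6, with a gap to the nearest of them over 0.568 of the whole range of the 7; chance gives such a gap in about 1 in 20 groups. Many of these genes were chosen for their values, and MPO, KIT, S100A8 and MS4A2 because they were high in Lymphoma_1, so the count cannot be read against that share. Groups of 3 tumors, and so the TCCs, were not examined in this way.

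Lymphoma_1 gave 8 of these. It was lowest for CD3D (level 8.81, next 11.80, gap 0.651 of the range), IKZF3 (9.91, next 12.20, gap 0.717) and JAK3 (4.37, next 6.62, gap 0.681). It was highest for CXADR (6.44, next 5.31, gap 0.634) and for the myeloid and mast cell genes KIT (11.33, next 7.34, gap 0.609), MPO (12.46, next 7.33, gap 0.631), S100A8 (13.40, next 9.40, gap 0.616) and MS4A2 (10.29, next 6.52, gap 0.628).

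Lymphoma_6 was lowest for ARHGAP15, with a gap of 0.901 of the range, and highest for ESR1 (0.89) and FXYD3 (0.807). Lymphoma_5 was highest for the phagocyte genes CD209 (0.69) and CTSS (0.582) and for PLA2G4A (0.742), and lowest for HPGD (0.708). Lymphoma_3 was lowest for ITGA4 (0.579) and VAV3 (0.712) and highest for ELF3 (0.601). Lymphoma_4 was highest for S100A5 (0.857) and ERRFI1 (0.584), Lymphoma_0 for ITGA3 (0.699) and TMPRSS2 (0.693), and Lymphoma_2 for LUM (0.6).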

How the results depend on the processing

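Over 21 alternatives, of which 10 each leave out 1 tumor, no gene called in both fits changed direction. The count of called genes was 1410 to 1929 with 1 tumor left out, 549 to 807 for genes higher in lymphoma and 826 to 1122 for genes higher in TCC, and the low ends came without a TCC. It was 1499 with the 3-prime over 5-prime covariate, 1678 at a pseudocount of 64 and 2205 with a variance for each group. Of 164 called genes examined one by one, 131 kept their call in every alternative, 25 lost it without some TCC and 20 with the covariate. Some called genes named above, such as GZMA, EOMES, CXCL10, DKK3 and AXIN2, were not among the 164. Among genes not called, KIT turned from 0.16 to -0.049 at a pseudocount of 1, and MS4A2 to -0.092 with the covariate. With 1 tumor left out, KIT ran from -0.57 to 0.52 and MS4A2 from -0.26 to 0.74, the low ends without Lymphoma_1. The causes were not tested.

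Some sizes moved by over 1.5 times without a change of direction. At a pseudocount of 64 these were CD247 (2.97), JAK3 (1.25), OAS3 (1.11), UPK2 (-1.91), ELF3 (-2.23), ITGA3 (-2.59), ERBB2 (-1.28), DRD1 (0.89), IKZF1 (1.53), WAS (2.08), MYO1G (1.26) and LIMD2 (1.85), and at 1, JAK3 (3.82) and IKZF1 (4.81). With the brightest probeset in place of the mean they were GRHL2 (-6.01), ITGB6 (-7.07), ABCC4 (-5.34), BIRC3 (3.0) and FERMT3 (4.11). With the covariate they were CD3E (2.23), RSAD2 (-1.58), PTGER4 (1.41) and MCM5 (1.18), with the replicate block CD247 (2.78), CD3E (1.27) and PLS1 (-2.66), and without TCC_1, ITGA6 (-1.56).

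The tumors share only a number in their labels. Deviations of gene levels from the mean of the tumor's own group were correlated between each TCC and each lymphoma. Same-numbered tumors had correlations of 0.0188, 0.0132 and 0.0148, within the -0.056 to 0.0359 of tumors with different numbers. These values show no pairing by number. With the replicate block, 1490 genes were called, 668 higher in lymphoma and 822 higher in TCC, and 1245 of them were among the 1964. In that fit the difference rests on Lymphoma_0 to Lymphoma_2 and the TCCs, since Lymphoma_3 to Lymphoma_6 have no TCC of the same number. Calls lost there reflect fewer lymphomas and a pairing the labels do not give, and say little about processing.

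Precision is limited by 3 TCCs. In simulated data of this design, 200 genes were changed by 2 on the log2 scale and 200 by 4 among 15115, and 65% and 97.5% of them were called. The simulation did not vary the number of TCCs. Its share of changed genes is smaller than the 13.0% called in the data, so these shares may not hold for the data.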

Other observations

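Mast cell genes other than KIT were also high in Lymphoma_1. MS4A2, a chain of the high-affinity IgE receptor, was at 10.29 there and at most 6.52 in the other lymphomas, and CMA1, the protease chymase, was at 10.18 against at most 8.97. In TCC, MS4A2 was at 6.22, 5.15 and 5.63 and CMA1 at 6.74, 6.11 and 5.36. The label says lymphoma and gives no subtype. The diagnosis of this tumor could not be checked here beyond the pathologist's review that the study gives for every biopsy.

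PRKCB, a protein kinase C of B cell receptor signaling, was among the tightest genes in lymphoma, at 11.32, 11.69 and 11.98, and at 6.64, 6.55 and 7.39 in TCC (4.76, SE 0.22, limma adjusted p = 6.66e-08). LIMD2, a LIM protein, was at 7.09, 7.59 and 8.54 in lymphoma and 4.27, 4.81 and 4.74 in TCC (3.12, SE 0.38, limma adjusted p = 0.000105). On the TCC side, GRB7, an adaptor of ErbB receptors, was at 4.14, 5.08 and 5.80 in lymphoma and 9.41, 8.23 and 8.97 in TCC (-3.89, SE 0.43, limma adjusted p = 4.39e-05), and ITGA3, an integrin chain for laminin, at 4.26, 4.60 and 5.47 and 8.83, 8.20 and 8.80 (-4.01, SE 0.37, limma adjusted p = 1.09e-05). None of these genes overlapped between groups.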
